A study of Rattus norvegicus with 252 samples.

Results

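The age change in the cortex of Q130 knock-in rats was measured between 2 and 6 months. The comparison used 20 of the 252 libraries of the series, 10 from animals of 2 months and 10 from animals of 6 months. They were chosen by their titles, which name the genotype, the tissue and the age. Each group held 5 females and 5 males. All 20 animals were Long Evans rats heterozygous for Q130, a knock-in allele that models Huntington disease. The tissue was the right cerebral cortex, and both ages belonged to batch 1 of the labels. No drug or other treatment is named for any group. The comparison groups of 2 and 6 months differed from these in genotype (wild type, WT) or tissue (striatum, hippocampus, cerebellum). Cortex libraries of 12 months, from Q130 and WT rats and of batch 2, are used for levels of single genes only. All 4 tissues came from the same animals. The sources used here do not say whether the knock-in line descends from 1 founder.

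Huntington disease is an inherited disorder in which a lengthened CAG repeat in the huntingtin gene codes for an expanded glutamine tract. Neurons of the striatum are lost first and most heavily, and the cortex, whose pyramidal neurons send the main excitatory input to the striatum, is also affected. In rodents the cortex goes on maturing into adulthood, with added myelin and a slow settling of synapses, so levels of many transcripts move with age in healthy animals too. The same contrast in WT cortex is therefore given for the named genes and the gene groups.

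Each animal gave 1 cortex library, so the 10 values in a group came from 10 animals. Library totals were 34552997 to 50828295 counts at 2 months and 33263802 to 42715229 counts at 6 months, a difference within the spread (two-sided permutation test of the means, p = 0.188). Between 18380 and 18814 genes had a count in each library. The files name genes by Ensembl identifier only, and 0 of the 32883 identifiers could be paired with a symbol here. Neither huntingtin nor the usual cortical markers could therefore be looked up. The tissue label was checked against the other libraries of its tissue: none of the 20 libraries had a median correlation with cortex below 0.97. The lowest, 0.977, belonged to the 2-month male 4, and the next was 0.981. Outside these 20, the WT 6-month cortex male 4 (0.922), the Q130 12-month cortex male 4 (0.895) and 5 libraries of other tissues of Q130 rats of 2 and 6 months stood apart from their tissue, with a correlation below 0.97. Of the 5, the libraries labelled striatum and hippocampus of 1 animal of 6 months each correlated best with the other's tissue (0.986 and 0.983). Results that rest on such libraries are given with and without them where they were refitted. Animal identifiers share a first part in small sets, 6 sets at each age with 0 in common between ages. At 2 months 5 of these sets also held WT rats, and at 6 months 1 did. The labels do not say what a set stands for.

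In Q130 cortex many genes changed with age, nearly all by a small amount. Of 15759 genes tested, 607 (3.85%) rose and 771 (4.89%) fell between 2 and 6 months. Together these were 1378 genes (8.74%) with an adjusted p under 0.05 in edgeR's quasi-likelihood test with sex as a covariate. The median size of a called change was 0.25 on the log2 scale. Past 1.5-fold there were 111 genes that rose and 80 that fell, and past 2-fold there were 33 and 17. The median change over all genes tested was 0.006, so scaled levels were centred on no change. With the identifier set as a random block, limma-voom called 1283 genes, of which 1251 were among the 1378. Precision was high: 14051 genes had a mean of at least 1 CPM (counts scaled to a common library total), and in 93.8% of them the 95% interval of the change lay inside 1.5-fold.

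**Figure D1:**
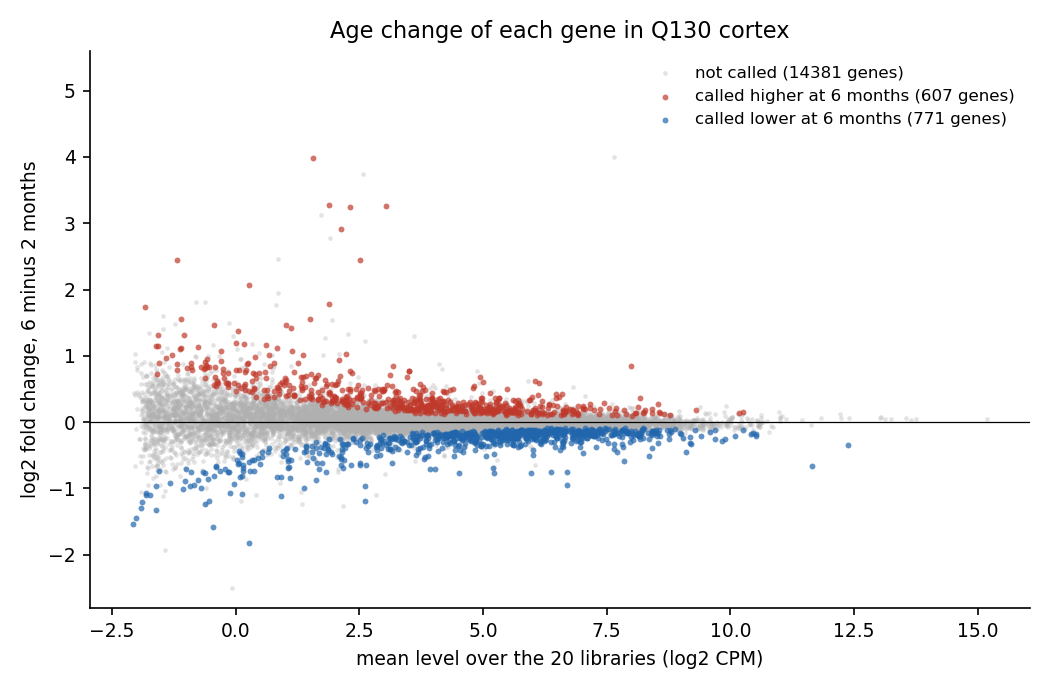
Each point is 1 of the 15759 genes tested, with its mean level over the 20 Q130 cortex libraries (log2 CPM) on the x axis and its log2 fold change, 6 minus 2 months, on the y axis. The 607 genes called higher (red) and the 771 called lower (blue) mostly lie within 1.5-fold of no change, and the largest positive changes are of genes at low levels.

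Rising and falling genes differed in abundance. Among genes under 1 CPM, 2.87% rose and 1.99% fell. From 4 to 16 CPM the shares were 5.31% and 3.14%. From 64 to 256 CPM the order was turned, with 2.50% that rose and 7.98% that fell. At 256 CPM or more, 3.01% of 599 genes rose and 10.9% fell. The precision of a change grew with the level, since the median standard error went from 0.24 under 1 CPM to 0.04 at 256 CPM or more. The share that rose did not follow the precision, while the share that fell was larger in the abundant classes. The median change of all genes in a class went the same way, from 0.09 under 1 CPM to -0.02 at 256 CPM or more.

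**Figure D2:**
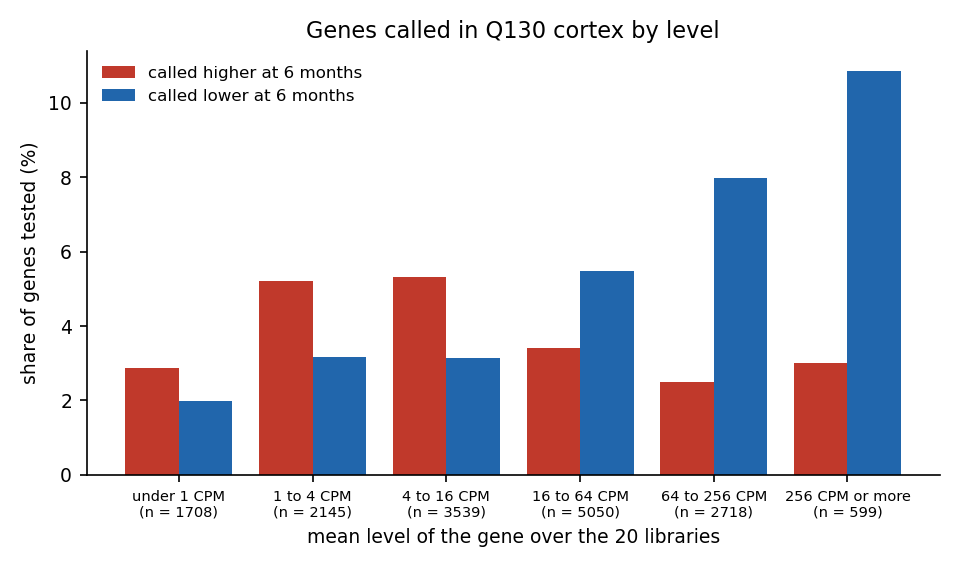
Bars give the share of genes tested (%) that were called higher (red) or lower (blue) at 6 months in Q130 cortex, for 6 classes of mean level, with the number of genes tested under each class. Lower calls reach 10.9% in the most abundant class against 1.99% in the least abundant, and higher calls stay between 2.50% and 5.31%.

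Of the 15759 genes tested, the groups of 10 libraries did not overlap at all for 33 that rose and for 87 that fell. All 120 were among the called genes, which so full a separation makes likely. The identifiers of the 2 rising and the 2 falling genes of smallest p are given next with their levels. What these genes do is left out, since their symbols were not matched.

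ENSRNOG00000003253 rose. In Q130 cortex at 2 months its lowest, median and highest levels were 154, 177 and 216 CPM, and at 6 months they were 288, 328 and 371 CPM. Every 6-month library lay above every 2-month library, in females and in males. The log2 fold change was 0.85 ± 0.06 (SE, n = 10 per age, edgeR adjusted p = 1.84e-09). At 12 months, in libraries of batch 2, the levels were 294, 342 and 390 CPM, overlapping those of 6 months. In WT cortex the levels were 138, 180 and 198 CPM at 2 months and 272, 300 and 567 CPM at 6 months, with a log2 fold change of 0.89 ± 0.11. The highest WT value belonged to the 6-month male 4. Without it the WT change was 0.78 ± 0.06.

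ENSRNOG00000011861, a less abundant gene, rose by a similar factor. Its levels in Q130 cortex were 7.26, 8.22 and 9.81 CPM (lowest, median, highest) at 2 months and 12.1, 14.3 and 17.3 CPM at 6 months. The ages did not overlap. The log2 fold change was 0.77 ± 0.07 (SE, edgeR adjusted p = 5.46e-07). At 12 months the levels were 12.7, 15.6 and 20.5 CPM. In WT cortex the change was 0.79 ± 0.13, from a median of 9.15 CPM to 15.6 CPM. There the ages overlapped, with a highest level of 12.6 CPM at 2 months and a lowest of 11.3 CPM at 6 months.

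ENSRNOG00000009345 fell, with the smallest p of all genes in this comparison. Its levels were 117, 137 and 159 CPM at 2 months and 62.1, 70.7 and 85.8 CPM at 6 months. The highest 6-month library stayed below the lowest 2-month library. The log2 fold change was -0.94 ± 0.05 (SE, edgeR adjusted p = 3.98e-11), a 1.92-fold fall. At 12 months the levels were 54.4, 68.8 and 79.1 CPM, again in the range of 6 months. The WT cortex gave -0.91 ± 0.05, with 113, 138 and 150 CPM at 2 months and 61.5, 70.1 and 86.0 CPM at 6 months.

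ENSRNOG00000003538 also fell. Its levels were 39.95, 45.2 and 49.98 CPM at 2 months against 24.1, 27.7 and 31.0 CPM at 6 months, with no overlap. The log2 fold change was -0.69 ± 0.05 (SE, edgeR adjusted p = 1.84e-09). At 12 months the levels were 24.3, 28.6 and 39.4 CPM. The highest 12-month value belonged to male 4, the library that stood apart at that age, which also had the lowest 12-month values of ENSRNOG00000003253 and ENSRNOG00000011861. The change in WT cortex was -0.69 ± 0.07.

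**Figure D3:**
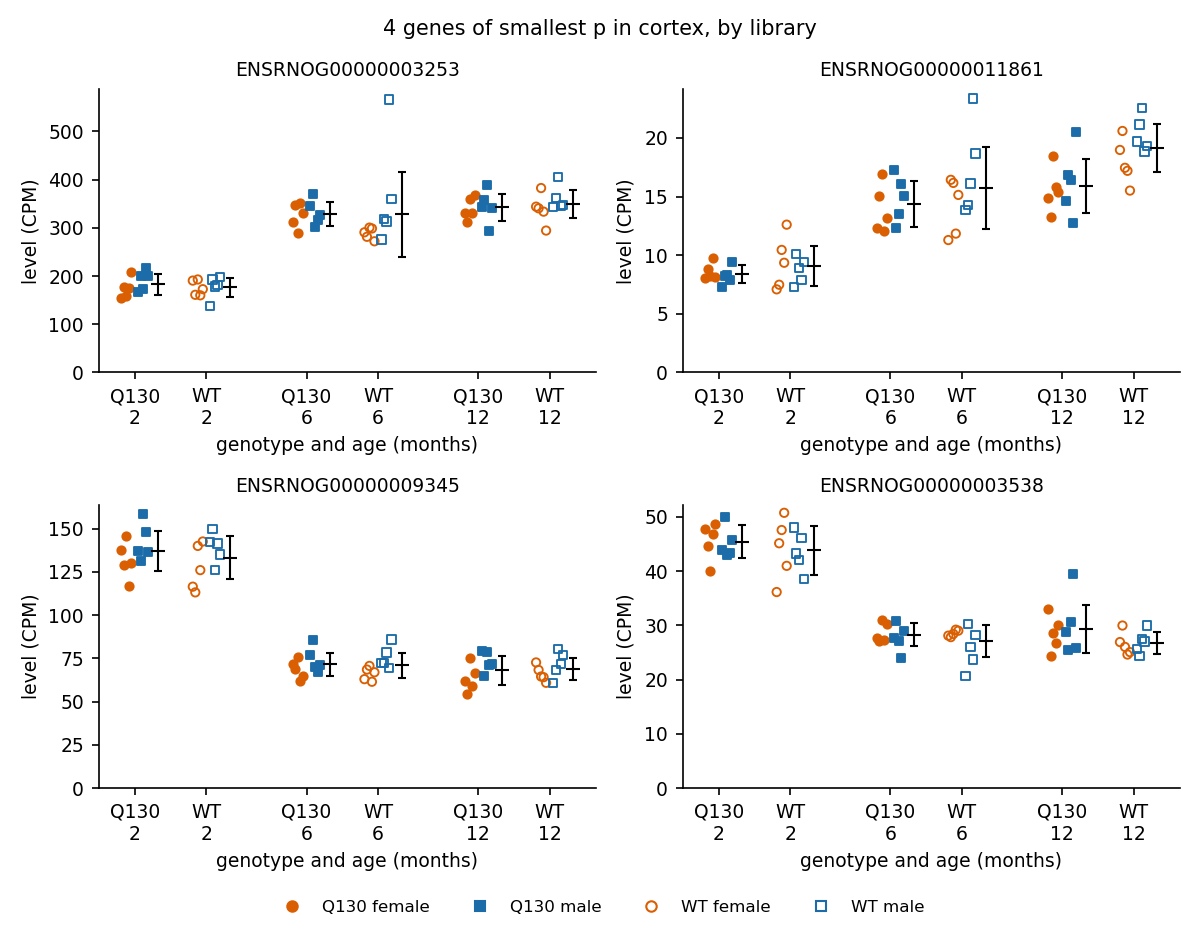
Each point is the level (CPM, linear axis from 0) of 1 gene in 1 cortex library, for Q130 (filled) and WT (open) females (circles) and males (squares) at 2, 6 and 12 months, and black marks give the mean ± SD of the 10 libraries of a group. In all 4 panels the Q130 libraries of 6 months lie apart from those of 2 months and overlap those of 12 months, which were of batch 2. The WT libraries overlap the Q130 ones of the same age.

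These 4 genes moved the same way throughout the brain regions sampled. Each was called in the same direction in striatum, hippocampus and cerebellum of Q130 rats and in all 4 tissues of WT rats. In the Q130 tissues, ENSRNOG00000009345 changed by -1.11 in striatum, -0.81 in hippocampus and -1.12 in cerebellum. ENSRNOG00000003253 changed by 0.89, 0.82 and 0.66 in the same order. These values include the 5 libraries that stood apart from their tissue, which belong to all 3 of these tissues. Without them the changes were -1.03, -0.97 and -1.07 for ENSRNOG00000009345 and 0.95, 0.67 and 0.78 for ENSRNOG00000003253, and all 4 genes remained called in each tissue. None of the 4 passed the test of a difference between genotypes, between sexes or between cortex and the other tissues.

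Most of these genes had an estimate of the same sign in WT rats. Of the 607 genes that rose in Q130 cortex, 606 were measured in WT cortex, where 563 had a positive estimate with a median of 0.21, against 0.30 in Q130. Of 767 measured genes that fell, 671 had a negative estimate in WT, with a median of -0.16 against -0.22. The Q130 medians are of genes picked for their change in Q130, a choice that favours larger values there. WT cortex itself gave 557 called genes of 15756 (3.54%). The 2 comparisons shared 145 rising genes (23.9% of the Q130 list, 55.1% of the WT list) and 189 falling genes (24.5% and 64.3%). No gene was called in opposite directions. Q130 and WT rats had 5 identifier sets in common at 2 months and 1 at 6 months, so their animals were not fully separate. Whether differences between sets entered the age change of both genotypes was not tested.

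The WT count depended on 1 library. The WT 6-month male 4 had a median correlation with cortex of 0.922, against 0.982 for the next library. Without it WT cortex gave 1680 called genes of 15810 (10.6%). The genes shared with Q130 then numbered 282 that rose (46.5% of the Q130 list, 37.1% of the WT list) and 431 that fell (55.9% and 46.9%).

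The difference between the genotypes was tested directly. In edgeR 0 of 16030 genes (0%) passed the test of a genotype-by-age interaction in cortex, with 992 genes at an unadjusted p under 0.05. DESeq2, limma-voom and limma-voom with library quality weights also gave 0. The smallest adjusted p in edgeR was 0.335. For 83.8% of 14038 genes at 1 CPM or more, the 95% interval of the difference lay inside 1.5-fold, and 91.3% did so without the 2 cortex libraries of lowest correlation. The median standard error of the difference was 0.11, and the median called age change in Q130 cortex was 0.25. Genotype differences of the size of a typical age change could therefore be missed.

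No gene passed edgeR's test of a difference in age change between the sexes. Fitted alone, the 10 females gave 268 called genes, 77 higher and 191 lower, and the 10 males gave 252, 121 higher and 131 lower. The age-by-sex interaction was called for 0 of 15954 genes (0%) in edgeR, with 909 at an unadjusted p under 0.05 and a smallest adjusted p of 0.0824. DESeq2 called 8 and limma-voom 1. The interval of this difference lay inside 1.5-fold for 79.1% of genes at 1 CPM or more, with a median standard error of 0.12.

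Gene groups were formed on WT libraries alone, so that no Q130 value entered them. Genes that rose from 2 to 6 months in WT striatum, hippocampus and cerebellum at once numbered 166. In Q130 cortex 80 of these rose and 0 fell, where 3.85% of all genes tested rose. Their median change was 0.20 against 0.006 for all genes tested. Of the 258 genes that fell in those 3 WT tissues, 149 fell in Q130 cortex and 0 rose, with a median of -0.22, where 4.89% of all genes tested fell. In WT cortex the medians of the 2 groups were 0.30 and -0.26. Changes common to the other WT brain regions were thus found in Q130 cortex in the same direction wherever they were called.

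Tissue-enriched genes were the second kind of group. A gene counted as enriched in a tissue if its WT level at 2 months was at least 2 log2 units above that in each of the other 3 tissues. Of 57 cortex-enriched genes, 14 fell and 3 rose in Q130 cortex, where 4.89% and 3.85% of all genes did. The median change of the group was -0.15, and 43 of the 57 estimates were negative. The mean level of the group per library was lowest 2.81, median 2.86 and highest 2.92 log2 CPM at 2 months. At 6 months it was 2.62, 2.73 and 2.81 log2 CPM. The 2 ages met at 1 library each. The change was alike in WT cortex, where the median level of the group was 2.88 log2 CPM at 2 months and 2.72 log2 CPM at 6 months. The WT estimates had a median of -0.13, with 7 genes that fell and 0 that rose, and 16 and 2 without the WT 6-month male 4. The WT libraries of 2 months also chose the group. In bulk tissue, fewer cells of a type and less RNA per cell cannot be told apart.

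Genes enriched in the other tissues had mostly positive estimates. Their mean levels in cortex were low. All genes tested had a median change of 0.09 under 1 CPM and 0.07 at 1 to 4 CPM, so a positive median was not particular to these groups. Over all genes tested 3.85% rose and 4.89% fell. Of 99 striatum-enriched genes 83 passed the filter on low counts in Q130 cortex, and of these 7 rose and 1 fell, with a median of 0.08. Their mean level per library was 0.51, 0.63 and 0.91 log2 CPM at 2 months and 0.69, 0.88 and 0.97 log2 CPM at 6 months. The highest 2-month value belonged to male 4, and without it the 2-month libraries ended at 0.77. The count is small and unsteady. It fell from 8 to between 3 and 5 when any 1 library was left out, other than the 2-month female 2 and male 4 and the 6-month female 3 and male 4. Of 55 hippocampus-enriched genes 37 passed the filter, and 3 rose and 1 fell, with a median of 0.14. In WT cortex the median changes were 0.10 for the striatum-enriched and 0.10 for the hippocampus-enriched genes. Whether the pieces of cortex held differing amounts of adjoining tissue was not tested.

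**Figure D4:**
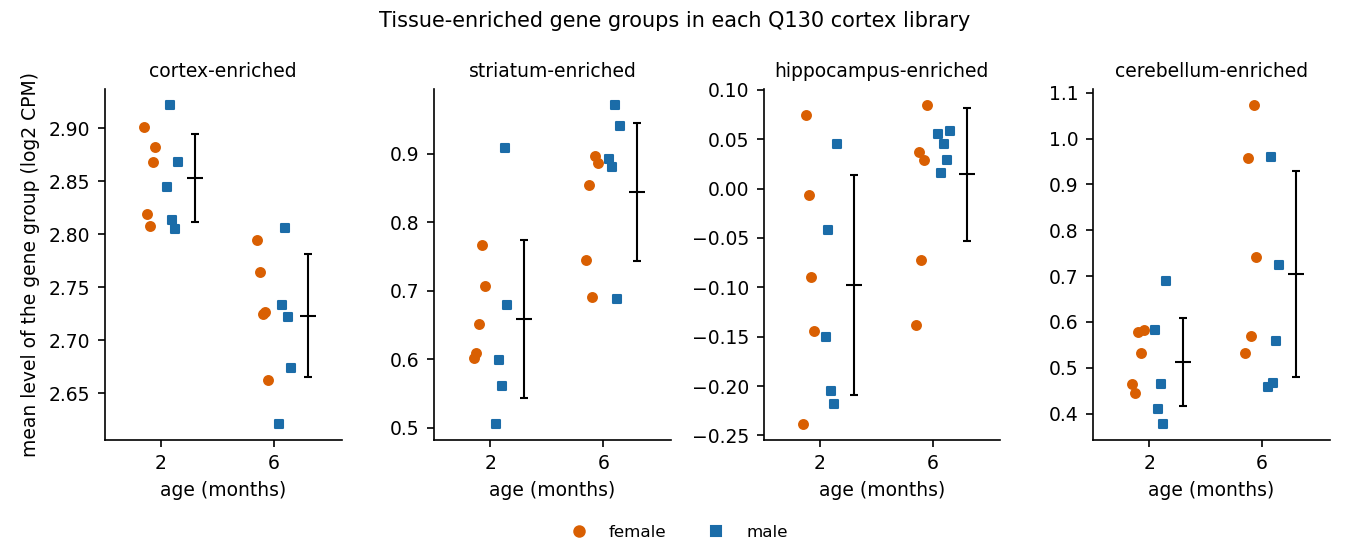
Each point is the mean level (log2 CPM) of a tissue-enriched gene group in 1 Q130 cortex library of 2 or 6 months, with females as circles and males as squares. Black marks give the mean ± SD of 10 libraries, and each panel has its own y axis, which does not start at 0. Cortex-enriched genes are lower at 6 months (2.62 to 2.81 against 2.81 to 2.92), and 3 libraries of 6 months lie above the rest for cerebellum-enriched genes.

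Of 273 cerebellum-enriched genes 198 passed the filter, and 18 rose and 9 fell, where 3.85% and 4.89% of all genes tested did. The median change of the group was 0.09, near that of all genes tested at 1 to 4 CPM (0.07). The mean level of the group was 0.38, 0.50 and 0.69 log2 CPM at 2 months and 0.46, 0.65 and 1.07 log2 CPM at 6 months. At 6 months 3 libraries, from females 2 and 4 and male 2, lay between 0.96 and 1.07, and the other 7 between 0.46 and 0.74. Without these 3 libraries 8 of the group rose and 8 fell, and the median was 0.03. They were picked as highest in the group, so fewer rises and a lower median largely follow from that choice. In WT cortex 5 genes of the group rose and 9 fell, with a median of 0.01. The levels of single WT libraries reached 0.98 log2 CPM at 2 months and 1.12 log2 CPM at 6 months.

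The same 3 libraries carried several of the rises past 2-fold, the 4 of greatest size among them. The called changes ranged from -1.82 to 3.98 on the log2 scale. Of the 33 genes past 2-fold, 10 were higher in each of the 3 libraries than in any of the other 17, and 5 of these 10 were cerebellum-enriched. Among all 15759 genes tested, 198 were cerebellum-enriched. The 3 libraries were picked as highest in that gene group, so its share of the 10 was partly built in. The summed level of the 10 genes was 70.2 to 229 CPM in the 3 libraries and 6.23 to 19.2 CPM in the other 17. The other 7 libraries of 6 months had a median of 11.7 CPM, against 8.57 CPM at 2 months. The 10 genes were picked as highest in the 3 libraries, so the gap in level to the other 17 was built in. Without the 3 libraries 0 of the 10 genes were called, which also largely follows from that choice. Of the 33, 19 remained called, and the largest called change was 2.78. The comparison as a whole then gave 416 genes that rose and 602 that fell. Females 2 and 4 shared an identifier set and male 2 did not. The hippocampus library of the animal that gave male 2 was among those that stood apart from their tissue (0.962). Which cells express these 10 genes could not be looked up, and the part of adjoining tissue in their rise was not tested.

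Genes that differ between the sexes gave 1 further pattern. In WT cortex 12 genes were higher in males. In Q130 cortex 6 of them fell with age and 0 rose, where 4.89% and 3.85% of all genes tested did. These 12 parted into 6 genes whose mean in WT females was at most 0.39% of that in males, and 6 genes present in both sexes, with females at 34.7% to 48.0% of males. This split was made after their values were seen. None of the 6 male-only genes was called with age (smallest edgeR adjusted p 0.244).

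All 6 of the genes present in both sexes fell in Q130 cortex, by 0.74 to 0.77 on the log2 scale (largest edgeR adjusted p 0.0241). They moved as a set across the 20 libraries, with a Pearson correlation of at least 0.85 between any 2 of them, given as a description since they share libraries. Their summed level in Q130 males was lowest 483, median 533 and highest 608 CPM at 2 months and 212, 246 and 285 CPM at 6 months. The male groups did not overlap. In Q130 females it was 195, 258 and 298 CPM at 2 months and 138, 152 and 289 CPM at 6 months, which overlapped. The 2 highest females of 6 months, 2 and 4, share an identifier set.

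In WT cortex 0 of these 6 genes were called with age, and their changes were -0.42 to -0.32. Without the WT 6-month male 4 their changes were -0.56 to -0.32, and 1 of the 6 was called (edgeR adjusted p = 0.0449). The WT males of 2 months spread from 350 to 734 CPM, and those of 6 months from 243 to 621 CPM, the highest being male 4. The other 4 WT males of 6 months, at 243 to 333 CPM, all lay below every WT male of 2 months. Neither the genotype-by-age difference (smallest edgeR adjusted p 0.723) nor the age-by-sex difference (0.681) passed the test. The fall of these 6 genes was therefore not shown to be limited to Q130 or to males. Their symbols, and so any cell type they mark, were not available for a check. Of the 11 genes higher in WT females, 1 fell and 0 rose, where 4.89% and 3.85% of all genes tested did.

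**Figure D5:**
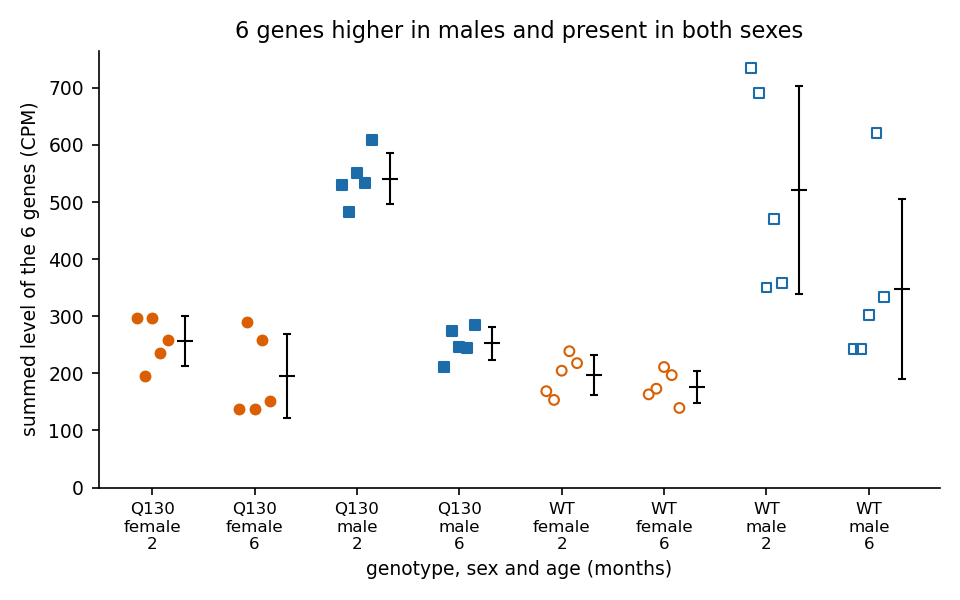
Each point is the summed level (CPM, axis from 0) of the 6 genes higher in WT males and present in both sexes, in 1 cortex library, by genotype, sex and age (5 libraries per column, Q130 filled and WT open). Black marks give the mean ± SD. Q130 males fall from 483 to 608 CPM at 2 months to 212 to 285 CPM at 6 months, and WT males of 6 months other than male 4 (621 CPM) lie at 243 to 333 CPM, below all WT males of 2 months. Females of both genotypes overlap between ages.

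The age change in cortex was finally set against that in the other tissues of the same Q130 rats. Of the genes that rose in cortex, 216 of 601 measured were called higher in Q130 striatum, where 4.27% of all genes were. In hippocampus 61 of 598 were called higher (0.604% of all genes) and in cerebellum 103 of 597 (2.5%). Of those that fell, 201 of 752 were called lower in striatum (3.32% of all genes), 48 of 755 in hippocampus (0.407%) and 170 of 739 in cerebellum (4.13%). Opposite calls numbered at most 4 in any of these lists. The tissues come from the same animals, so these counts are not independent.

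Each of the other 3 tissues held libraries that stood apart, and the counts were higher without them. In striatum 315 of 601 were then called higher (9.59% of all genes) and 379 of 752 lower (8.53%). In hippocampus the counts were 143 of 598 higher (1.82%) and 246 of 757 lower (2.42%). In cerebellum they were 194 of 598 higher (7.03%) and 277 of 739 lower (8.1%), with 8 and 10 opposite calls.

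The contrast of cortex with the mean of the other 3 tissues was fitted with the animal as a block. It called 1 gene of 17087 (0.00585%), with 946 at an unadjusted p under 0.05 in edgeR. The gene, ENSRNOG00000015763, was named after its value was seen. It rose in Q130 cortex from 19.96, 23.6 and 27.0 CPM (lowest, median, highest) to 29.6, 39.0 and 44.9 CPM, without overlap. Its log2 fold change was 0.69 ± 0.07 in cortex, 1.30 ± 0.09 in striatum, 1.48 ± 0.15 in hippocampus and 1.17 ± 0.14 in cerebellum. The contrast was -0.64 ± 0.12 (SE, edgeR adjusted p = 0.0412). The WT rats, which the test did not use, gave 0.68 in cortex, 1.23 in striatum, 1.44 in hippocampus and 1.02 in cerebellum. At 2 months the median of the gene was higher in Q130 cortex than in the other 3 tissues, whose medians were 11.8, 7.03 and 16.1 CPM in the same order. At 6 months the medians were 28.0, 19.0 and 37.3 CPM, so that the cerebellar median was close to that of cortex. Levels were scaled within each tissue and include the libraries that stood apart. At 2 months the cerebellum, with a highest level of 23.7 CPM, overlapped the cortex.

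Without the 5 libraries that stood apart from their tissue, the contrast called 51 genes of 17386 (0.293%), 19 with a higher and 32 with a lower change in cortex. Of the 32, 19 had fallen and 2 had risen in the cortex comparison itself, where 4.89% and 3.85% of all genes tested did. Their median changes were -0.19 in cortex, 0.16 in striatum, 0.00 in hippocampus and 0.12 in cerebellum. These medians come from fits of single tissues that kept the 5 libraries. ENSRNOG00000015763 was among the 32, with a contrast of -0.58 (adjusted p = 2.58e-04 in edgeR). Without the 5 libraries its changes were 1.32 in striatum, 1.41 in hippocampus and 1.03 in cerebellum. The median changes of the 19, with the 5 libraries kept, were 0.08 in cortex, -0.25 in striatum, -0.10 in hippocampus and -0.41 in cerebellum. Of these 19, 7 were called higher and 3 lower in cortex. The 32 and the 19 were picked by the side of the contrast. The order of cortex and the other tissues in their medians, and the main direction of their cortex calls, largely follow from that choice.

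The 20 cortex libraries varied about as much at 6 months as at 2. The median SD of a gene's log2 level was 0.13 at 2 months and 0.12 at 6 months, and 0.11 at 2 months without male 4. In a principal component analysis the first component held 17.4% of the variance. Along it the 2-month male 4 lay at -44.1, and the other 19 libraries lay between -16.7 and 16.5. The 2 ages overlapped on each of the first 4 components, but were shifted on components 2 and 3. Component 2 ran from -14.6 to -0.99 at 2 months and from -8.31 to 30.5 at 6 months. Its highest scores were those of the 6-month females 2 and 4 and male 2. Component 3 ran from -18.4 to 5.07 at 2 months and from -4.76 to 20.2 at 6 months. Leaving out the 2-month male 4 raised the count of called genes from 1378 to 1646, 698 higher and 948 lower. The age comparison given above kept it.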

How the data were processed

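The submitters' labels describe flash-frozen tissue, Qiagen RNA extraction, Bioanalyzer quality control and Illumina libraries from enriched RNA. The authors deposited 1 table that holds an estimated count per Ensembl gene and library, not normalized by them as far as its values show. Of its values in the 20 libraries 8.31% were not whole, and all were rounded. For the aligner, the counter, its strand setting and the genome, the sources used here name nothing. Column names were matched to animal identifiers in the labels. Columns written with dots were taken as the repeat libraries of batch 2 and left out, an inference that touches striatum only.

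Genes were kept by filterByExpr, scaled by TMM and tested with edgeR 4.0.16 (robust quasi-likelihood, sex as covariate, Benjamini-Hochberg over all genes tested) in R 4.3.3. A gene is called at an adjusted p under 0.05. DESeq2 1.42.0, limma 3.58.1 and other filters, scalings and sets of libraries were alternatives. The fits were tested on simulated data. Replicates are separate animals. No pair of libraries of a group agreed within sampling noise.

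The comparison, its gene groups and lists were chosen with earlier results of these data known. The planned lists of gene symbols, including cell type markers, could not be used, since no identifier had a symbol here. The rule for named genes therefore fell back on the 2 rising and 2 falling identifiers of smallest p, both at 1 CPM or more. No sequence is printed for the same reason. Tissue-enriched genes had more than 0 log2 CPM in their own tissue.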

Additional observations from a re-analysis of the deposited data

Results flagged for a closer look

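Groups of 10 libraries were checked for a library far from the others in 48 cases, and 5 were found. Chance gives about 1 in 20 in independent checks, which these were not. In Q130 cortex at 2 months the median correlation with cortex was lowest in male 4, at 0.977 against 0.985 for the next. The WT cortex of 6 months had its lowest correlation in male 4, 0.922 against 0.982 for the next library. This male 4 library also had ENSRNOG00000003253 at 567 CPM, against 359 CPM for the next. It had the highest mean level of striatum-enriched genes as well, 1.13 log2 CPM against 0.87. In WT cortex at 2 months the mean level of cerebellum-enriched genes reached 0.98 log2 CPM in 1 library, against 0.60 for the next.

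The age change of ENSRNOG00000015763 in Q130 cortex differed from that in the other tissues of the same rats by -0.64 on the log2 scale (edgeR adjusted p = 0.0412), in a test of the difference itself.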

How the results depend on the processing

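The count of 1378 genes called in Q130 cortex stayed within 1.5 times that number under every alternative run, from 941 with all 40 cortex libraries in 1 fit to 1736 with DESeq2. The lists themselves varied more. Without the 3 libraries high in cerebellum-enriched genes, 875 of the 1378 were still called, with 5 changes of sign. With all 40 libraries 881 were, with the replicate block 1005 and with DESeq2 1376. Leaving out 1 library at a time gave 1051 to 1646. The 4 identifiers named for this comparison kept direction and call in all 30 alternatives each. Replicate numbers did not pair the animals: correlations of same-numbered libraries ran from -0.18 to 0.18, and 3 of 10 libraries correlated best with their own number. A replicate block gave 1065 called genes, and the identifier set as a random block 1283. In WT cortex the count of 557 became 968 with DESeq2, 1854 with library quality weights, 300 with a replicate block and 394 to 1680 with 1 library left out. The genotype-by-age count stayed at 0, or was 1 without the Q130 6-month male 4 (range 0 to 1). The age-by-sex count of 0 became 8 with DESeq2 and 1 with limma-voom, with library quality weights and with the identifier set as a random block. The age-by-tissue count of 1 became 0 in limma-voom, 51 without the libraries that stood apart, and 99 without these and the striatum. ENSRNOG00000015763 missed the threshold in 2 of its 4 alternatives, with contrasts of -0.65 in limma-voom and -0.66 without striatum (largest adjusted p 0.0783). The alternatives that leave out libraries that stood apart (also in single tissues), the striatum or the 3 libraries high in cerebellum-enriched genes, and those of the WT comparison, were chosen after seeing the data. The causes of these shifts were not tested. Depth limited changes of genes under 1 CPM, whose median standard error was 0.24.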
